A study of Homo sapiens with 16 samples.

Results

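The nuclear genes for the subunits of the 5 oxidative phosphorylation complexes were examined in 8 human B-cell lines after inhibition of IKKbeta. Genes were taken by symbol, as those starting with NDUFA, NDUFB, NDUFC, NDUFS, NDUFV, SDHA to SDHD, UQCR, COX4I, COX5, COX6, COX7, COX8 or ATP5, with assembly factors left out. This gave 82 of the 19775 genes that had a probe set of their own. Of these, 77 were protein-coding subunit genes, 33 of complex I, 3 of complex II, 6 of complex III, 17 of complex IV and 18 of complex V, and 5 were other transcripts. The complex was taken from the symbol alone, so ATP5IF1, an inhibitor of complex V, and COX7A2L are counted as subunits of complexes V and IV. A gene was tested when its signal exceeded the 60th percentile of the array on at least 2 arrays, which kept 72 of the 77 subunit genes and 12305 genes in all. The 5 subunit genes that were not tested were COX6A2, COX6B2, COX7A1, COX7B2 and COX8C. Another 9 genes of the RefSeq table that fit the rule had no probe set of their own and were not analysed here.

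The lines fell into 4 groups. The AFN700-treated sensitive group held REC-1 and SP49, and the AFN700-treated insensitive group held JVM-13, JVM-2, Maver-1, Z-138, GRANTA-519 and HBL-2. Their medium held 5 uM AFN700 for 20 hours, a compound that blocks IKKbeta, the kinase that activates classical NF-kB. The DMSO sensitive and DMSO insensitive groups held the same lines after 20 hours with the solvent at 0.025%. The labels grade the lines as sensitive or insensitive to "stn", which they do not explain, and to ibrutinib, an inhibitor of the B-cell receptor kinase BTK. Each line gave 1 Affymetrix array per treatment, 16 in all, so the cell line is the replicate, a value of a single line has no error of its own, and the number of arrays limits the precision. The medium was DMEM for GRANTA-519 and RPMI for the rest. The treated array of JVM-13 carries AFN700 in its title and AFN701 in its treatment field, and it was used as the treated array of that line.

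Oxidative phosphorylation passes electrons from NADH through complex I, or from succinate through complex II, to ubiquinone, then through complex III and cytochrome c to complex IV, which reduces oxygen. Complexes I, III and IV pump protons across the inner mitochondrial membrane, and complex V, the ATP synthase, uses the gradient to make ATP. Most subunits are encoded in the nucleus and imported, while core membrane subunits of all complexes but complex II are encoded by mitochondrial DNA, and none of those had a named probe set here. Lymphoma cells use this pathway beside glycolysis. The transcription factors NRF1, GABP and YY1 are textbook regulators of many of its nuclear genes.

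The arrays carried signal for B-cell genes, with MS4A1 (CD20) between 3889 and 5372 intensity units with AFN700 and between 3178 and 5322 with DMSO. CD79A was at 657 to 2321 with AFN700 and 662 to 1685 with DMSO, and PAX5 at 289 to 1184 and 410 to 1385. CD79B and CD22 varied more between lines. CD79B was at 207.5 to 2034 with AFN700 and 164 to 1853 with DMSO, and CD22 at 43.8 to 1539.5 and 46.1 to 1431. The summed level of these 5 of the 6 B-cell markers listed was 6039 to 11230 with AFN700 and 5141 to 10251 with DMSO. Of the mantle cell markers, CCND1 (cyclin D1) was at 2.3 with AFN700 and 4.8 with DMSO in JVM-13, and at 79.1 and 78.7 in JVM-2. SOX11 was at 0.6 and 0.1 in JVM-2 and at 0.3 and 1.4 in JVM-13, while the other 6 lines had 453 to 3419 with AFN700 and 584 to 2336 with DMSO. SOX11 was thus near 0 in JVM-2 and JVM-13, and CCND1 was near 0 only in JVM-13. On the JVM-13 array with DMSO the median of log2 intensity was 7.25, while the other 15 arrays had 7.82 to 8.02. The correlation across genes between its 2 arrays was 0.924, against 0.964 to 0.990 within the other lines. The ratio of 3' to 5' actin probe sets, which reflects RNA quality, was 16.7 with AFN700 and 1.90 with DMSO in HBL-2. It was 18.8 and 10.3 in Maver-1, 6.39 and 2.73 in SP49, and 4.62 and 5.06 in REC-1.

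The promoters of 66 of the 77 subunit genes were matched by Entrez number in the RefSeq table (build GRCh38.p14), which gives 250 bases before and 50 bases after the start of each gene. Both strands were searched for the core letters of NRF1 (GCATGCGC), GABP (CCGGAAGT) and YY1 (AAGATGGCG). The NRF1 core was present in 12 of 66 subunit promoters (18.2%), against 3.27% of all 27305 promoters of that length. The GABP core was present in 9 (13.6%, against 4.44%) and the YY1 core in 7 (10.6%, against 1.85%). At least 1 of the 3 cores occurred in 23 subunit promoters (34.8%), against 8.90% of all promoters. The promoters compared with were those of every gene in that table, not limited to protein-coding or bright genes. A match is a description of the letters in the window and shows no binding. The 170 bases before the start are given here for the 5 genes on which the results turn most. SDHD (chr11:112086703-112086872, plus strand), a membrane anchor of complex II, was present at 2 separate levels among the lines. COX5B (chr2:97645892-97646061, plus strand), a subunit of complex IV, had a negative difference between the DMSO groups by each of 4 probe sets, without passing the test. NDUFB4 (chr3:120596166-120596335, plus strand) and NDUFA7 (chr19:8321376-8321545, minus strand), accessory subunits of complex I, had the smallest unadjusted p-values over all lines, and NDUFA5 (chr7:123601652-123601821, minus strand), another accessory subunit of complex I, had the lowest unadjusted p between the DMSO groups. Capitals mark the letters of a motif match.
SDHD: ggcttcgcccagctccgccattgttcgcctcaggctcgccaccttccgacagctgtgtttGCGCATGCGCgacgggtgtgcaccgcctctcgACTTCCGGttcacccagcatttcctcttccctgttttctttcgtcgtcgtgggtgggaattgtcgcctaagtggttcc
COX5B: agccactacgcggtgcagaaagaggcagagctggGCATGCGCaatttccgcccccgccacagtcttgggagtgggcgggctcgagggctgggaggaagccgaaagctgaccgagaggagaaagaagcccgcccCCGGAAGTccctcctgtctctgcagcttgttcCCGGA
NDUFB4: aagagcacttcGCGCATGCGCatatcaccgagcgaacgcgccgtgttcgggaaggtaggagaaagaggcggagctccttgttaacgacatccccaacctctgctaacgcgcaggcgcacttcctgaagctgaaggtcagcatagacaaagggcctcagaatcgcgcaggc
NDUFA7: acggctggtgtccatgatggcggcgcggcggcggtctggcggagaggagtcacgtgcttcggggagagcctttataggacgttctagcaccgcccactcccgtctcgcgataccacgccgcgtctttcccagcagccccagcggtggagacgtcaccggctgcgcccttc
NDUFA5: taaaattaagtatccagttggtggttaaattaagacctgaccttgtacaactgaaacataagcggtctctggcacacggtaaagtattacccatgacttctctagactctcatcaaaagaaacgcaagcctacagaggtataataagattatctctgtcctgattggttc
In SDHD, NRF1 cores on the 2 strands overlapped, with first bases at -110 and -108 from the gene start, and a GABP core on the minus strand lay at -78. COX5B held an NRF1 core at -136 and GABP cores at -37 and -5, the second of which runs past the start and is shown only in part. NDUFB4 held overlapping NRF1 cores at -159 and -157. No core was found in the stretches shown for NDUFA7 and NDUFA5, and NDUFA7 had a YY1 core at 15 bases after the start.

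In DMSO the subunit genes varied less between lines than most genes did. The median SD of the log2 level over the 8 DMSO arrays was 0.31 for the 72 subunit genes and 0.70 for all genes tested, and 0.26 against 0.57 without JVM-13. The highest DMSO array was at least 2-fold above the lowest for 35 of 72 subunit genes (48.6%), against 86.4% of all genes. By complex these were 21 of 33 genes of complex I, 2 of 3 of complex II, 1 of 6 of complex III, 5 of 12 of complex IV and 6 of 18 of complex V. The steadiest gene was ATP5PO, the oligomycin sensitivity subunit in the stalk of ATP synthase, which ranged between 2770 and 3394 units in DMSO (SD of log2 0.09). COX7C and COX7A2, small membrane subunits of complex IV, and UQCRC2, a core protein of complex III, had SDs of 0.12, 0.12 and 0.11. The probe sets of 45 of the 72 subunit genes lay in the brightest 10% of the genes tested by mean level, and the part of brightness in this result was not tested. A lower value in a culture can come from fewer cells of a kind or from less RNA per cell, and these arrays cannot tell the 2 apart.

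SDHD lay at 2 levels that did not follow the sensitivity labels. It had 1933 units in REC-1 and 877 in SP49 with DMSO. Among the insensitive lines the DMSO level was 1982 in JVM-13, 1719 in JVM-2, 1772 in HBL-2 and 1753 in GRANTA-519, against 862 in Z-138 and 718 in Maver-1. No DMSO array lay between 877 and 1719 units. With AFN700 the same 5 lines were at 1603 to 1812 units and the other 3 at 731 to 812, so each line kept its level. SDHA, the flavoprotein that oxidises succinate, differed little among the same DMSO arrays, with a lowest level of 1185, a median of 1331 and a highest of 1534. The second membrane anchor, SDHC, was at 1965 in REC-1, at 2173 in SP49 and between 1169 (JVM-13) and 2526 (JVM-2) in the insensitive lines.

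The widest DMSO spread was that of NDUFV3 (SD of log2 0.81), NDUFA7 (0.75), NDUFA5 (0.69), NDUFB7 (0.65), ATP5MC2 (0.64) and ATP5MF (0.62). NDUFV3, an accessory subunit near the NADH-binding site of complex I, was at 558 and 533 units in REC-1 and SP49, against a lowest of 112 (JVM-13), a median of 281 and a highest of 490.5 (HBL-2) in the insensitive lines. Both sensitive lines were above all 6 insensitive ones, although the log2 difference of 0.99 ± 0.57 (SE) did not pass the test (adjusted p = 0.897). Its second probe set gave a DMSO difference of 1.28, with overlapping groups, at 302 units in REC-1 and 127.0 in SP49, against 137 in JVM-2. ATP5MC2, 1 of the 3 genes for the c-ring of ATP synthase, was at 611 and 406 units in the sensitive lines, against 387 to 1396.5 in the insensitive lines. Those ranges overlap, as do the ranges of NDUFB7, at 323 and 365 in the sensitive lines and 266 to 990 in the insensitive lines. ATP5MF was dim throughout, at 18.4 to 84.1 units in DMSO.

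Several complex IV subunits exist in a general and a tissue-restricted form, and only the general forms gave clear signal. COX4I1 had 1587 to 2714 units with AFN700 and 1534 to 3152 with DMSO, while COX4I2, the form known from lung, had 1.3 to 34.0 and 9.4 to 35.8. The muscle forms COX6A2 and COX7A1 were at 5.4 to 11.2 and 0.7 to 5.2 units with AFN700, and at 4.2 to 10.9 and 0.4 to 2.9 with DMSO. The testis forms COX6B2 and COX8C reached at most 10.2 and 7.5 units with AFN700 and 7.3 and 5.1 with DMSO. COX7B2, also known from testis, had 23.4 with AFN700 and 13.9 with DMSO in JVM-2 and at most 6.7 and 5.5 in the other lines. Such values cannot be told from background here, since no detection calls were used. The general partners COX6A1, COX6B1, COX7A2, COX7B and COX8A all had at least 1681 units on each AFN700 array and at least 1526 on each DMSO array. COXFA4, formerly NDUFA4 and outside the rule under its present name, is a complex IV subunit with 2580 to 3269 units with AFN700 and 2369 to 3170 with DMSO, and its relative COXFA4L2 stayed at 2.9 to 23.3 and 10.2 to 27.7.

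Levels without AFN700 were compared between the sensitive and insensitive lines on the 8 DMSO arrays. Subunit genes leaned lower in the sensitive lines, at a median log2 difference of -0.16 against 0.07 for all genes tested, with 58 negative and 14 positive differences. No subunit gene passed the threshold of an adjusted p of 0.05 (limma, Benjamini-Hochberg over all genes tested), and 1 gene of 12305 did (0.00813%). At an unadjusted p under 0.05 there were 4 of 72 (5.56%), against 5.7% of all genes tested, so the share of single genes was near the background. Negative differences made up 26 of 33 in complex I (median -0.18), 1 of 3 in complex II (0.02), 4 of 6 in complex III (-0.03), 11 of 12 in complex IV (-0.29) and 16 of 18 in complex V (-0.16). After quantile normalization 32 of the 72 were positive and the median was -0.05, and with each array centred on its median 6 were positive and the median was -0.32. Over all genes tested the median then was 0.06 and -0.09, so centring moved it by more than 0.1.

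By line, the sensitive lines were not the only ones on the low side. The median deviation of the 72 genes from their own mean over the DMSO arrays was -0.15 in REC-1 and -0.07 in SP49. Among the insensitive lines Maver-1 (-0.10) and Z-138 (-0.09) were negative, and GRANTA-519 (0.04), JVM-2 (0.09), JVM-13 (0.13) and HBL-2 (0.17) were positive. Z-138 and Maver-1 thus lay among the sensitive lines, and the groups overlapped. The actin 3'/5' ratio with DMSO was 5.06 in REC-1, 2.73 in SP49, 10.3 in Maver-1 and 3.50 in Z-138. It was 2.78 in GRANTA-519, 2.12 in JVM-2, 2.01 in JVM-13 and 1.90 in HBL-2, and the part of RNA quality in these levels was not tested. The complexes differed within lines: in Z-138 complex IV was at -0.16 while complex II was at 0.16, and in JVM-2 complex II was at 0.35. In REC-1 the bright genes as a whole were low, with a median deviation of -0.14 over the 1231 genes of the brightest 10%, and in JVM-13 they were high (0.21). After quantile normalization the subunit median was 0.00 in REC-1 and -0.08 in JVM-13.

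**Figure D1:**
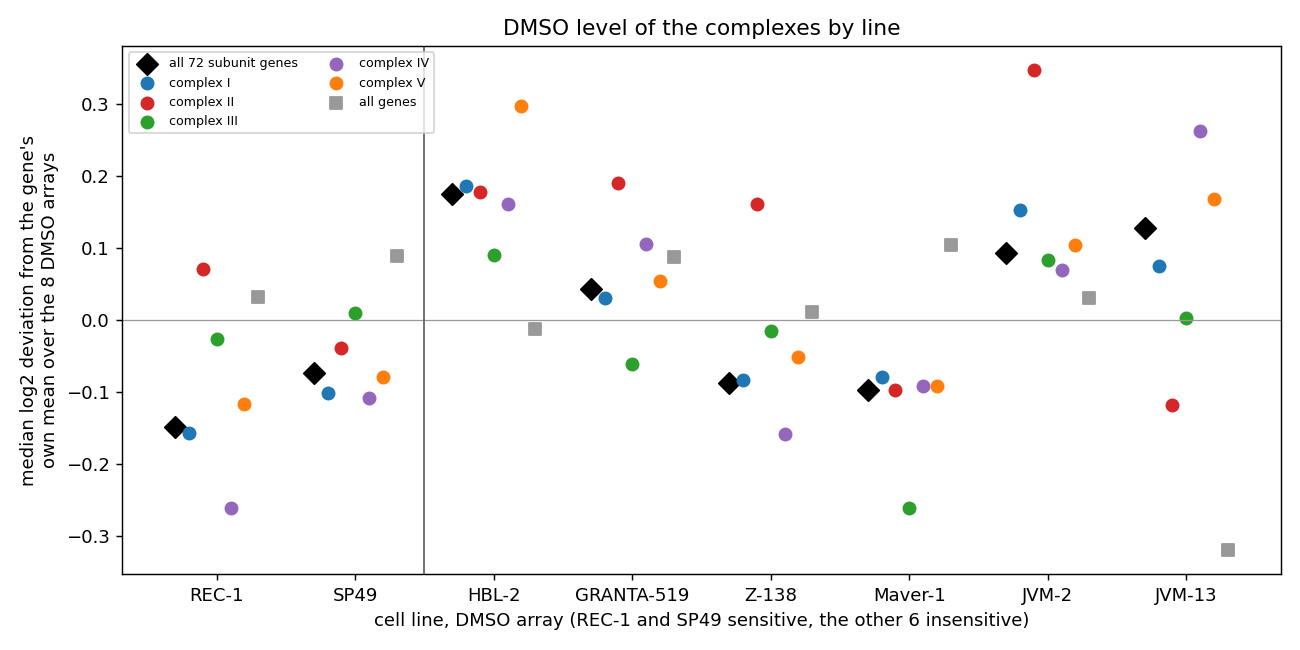
Median log2 deviation of the genes of each complex from their own mean over the 8 DMSO arrays (y axis), by cell line (x axis), with all 72 subunit genes as black diamonds and all genes tested as grey squares. REC-1 and SP49, left of the vertical line, are at -0.15 and -0.07 for the subunit genes, and the insensitive Z-138 and Maver-1 are at -0.09 and -0.10.

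NDUFA5, an accessory subunit of the arm of complex I that protrudes into the matrix, showed the lowest unadjusted p. It had 1011 units in REC-1 and 423 in SP49, against a lowest of 1253 (JVM-2), a median of 1489 and a highest of 1975 (HBL-2) in the insensitive DMSO arrays. The 2 sensitive lines lay below all 6 insensitive lines, with a log2 difference of -1.21 ± 0.33 (SE; limma, adjusted p = 0.593). Without SP49 the difference was -0.59 and without REC-1 it was -1.84, so SP49 carries more of it. With AFN700 both sensitive lines were again below all others, at 872 and 440 units, against at least 959 in the insensitive lines.

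COX5B, COX5A and NDUFB10 followed as the other genes at an unadjusted p under 0.05. COX5B had 2003 units in REC-1 and 1126 in SP49, against 1750 (Maver-1) to 2849 (HBL-2) and a median of 2425 in the insensitive lines. The ranges overlap because REC-1 was above Maver-1 and JVM-13, and the log2 difference was -0.62 ± 0.27 (SE, adjusted p = 0.866). Its 4 probe sets, all above the 60th percentile on the 16 arrays, gave DMSO differences of -0.62, -0.49, -0.63 and -0.70. COX5A, its neighbour in complex IV, had 2846 and 3557 units, against 3645 to 5635, without overlap (log2 difference -0.47 ± 0.17, adjusted p = 0.829). The second COX5A probe set, of lower signal, gave a difference of 0.01. NDUFB10, an accessory subunit of the membrane arm of complex I, had 605 and 383 units, against 611 to 938, again without overlap (-0.74 ± 0.30, adjusted p = 0.861), and -0.98 by its second probe set.

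Counted without a test, 7 of 72 subunit genes (9.72%) had both sensitive DMSO arrays outside the range of the 6 insensitive ones, against 9.18% of all genes tested. These were ATP5PF, COX5A, NDUFA5, NDUFB2 and NDUFB10 below the range and NDUFV3 and COX4I2 above it. The share is near that of all genes. ATP5PF, a stalk subunit of ATP synthase, had 2294 and 2264 units, against 2392 to 2987, and NDUFB2, an accessory subunit of complex I, had 1093 and 855, against 1162 to 1849. COX4I2 was dim, at 19.1 and 35.8 units, against 9.4 to 17.6. It passed the filter on only 2 arrays, and its highest values were those of SP49, at 35.8 with DMSO and 34.0 with AFN700. COX4I2 was thus tested only because it was high in a sensitive line, so its place above the range carries no weight.

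AFN700 was first compared with DMSO over all 8 lines, with the line as a block. Subunit genes as a set lay close to all genes, at a median log2 difference of 0.03 against 0.06 for all genes tested, with 43 positive and 29 negative. No subunit gene and none of the 12305 genes passed the threshold (0.0%). At an unadjusted p under 0.05 there were 3 of 72 (4.17%), against 8.18% of all genes tested, and all 3 encode accessory subunits of complex I and had positive differences. The medians by complex were 0.02 for complexes I and IV, 0.12 for complex II, 0.06 for complex III and 0.03 for complex V. With each array centred, the subunit median was -0.06 and that of all genes -0.04.

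NDUFA7 was the only subunit gene whose AFN700 value was above the DMSO value in all 8 lines. The sensitive lines had 1035 (REC-1) and 709 (SP49) units with AFN700, against 763 and 517 with DMSO. The insensitive lines had a lowest of 413, a median of 677 and a highest of 886 units with AFN700, against a lowest of 144, a median of 515 and a highest of 661 with DMSO. The log2 differences ran between 0.24 and 0.59 in 7 lines and reached 1.50 in JVM-13, where the DMSO array was by far the lowest of the 8. Over the lines the difference was 0.52 ± 0.15 (SE; limma, adjusted p = 0.466). Without JVM-13 it was 0.38 ± 0.09, with an adjusted p of 0.105. The sign was positive in every line under quantile normalization (0.25 to 1.24) and with centred arrays (0.23 to 0.83). A second, dimmer NDUFA7 probe set, above the 60th percentile on 11 of 16 arrays, was also positive in all 8 lines (0.02 to 0.82). Over all genes tested 2.40% had one sign in all 8 lines, against 1.39% of the subunit genes, so 1 such gene among 72 is not more than the background.

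NDUFB4 had 2963 and 2828 units with AFN700 in REC-1 and SP49, against 2284 and 2546 with DMSO. In the insensitive lines it ranged between 1906 and 3694 (median 2810) with AFN700, against 1694 and 3506 (median 2428) with DMSO. Its differences were small and positive in 7 of 8 lines, between 0.07 and 0.37, and -0.03 in JVM-2. Over the lines this gave 0.16 ± 0.06 (SE, limma, adjusted p = 0.563). NDUFC1, another accessory subunit of the membrane arm, had 1519 and 1514 units with AFN700 in the sensitive lines, against 1428 and 1273 with DMSO, and 734 to 1913 (median 1112) with AFN700 in the insensitive lines, against 583 to 1314 (median 882) with DMSO. It was positive in 7 lines and -0.16 in Z-138, with 0.94 in JVM-13, and the mean was 0.26 ± 0.12 (adjusted p = 0.604).

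The subunit genes of highest mean DMSO signal in complexes I, III, IV and V were followed as well, and their values were close between treatments. In complex I these were NDUFA12, an accessory subunit at 2579 to 3658 units with AFN700 and 2634 to 5535 with DMSO, NDUFB9, and NDUFS6. In complex III they were UQCRB, UQCRC2 and UQCR11, of which UQCR11 ranged over 1548 to 2336 with AFN700 and 1452 to 2110 with DMSO. In complex IV they were COX7C, COX5A and COX7B, and COX7C had 3793 to 4865 with AFN700 and 3615 to 4510 with DMSO. In complex V they were ATP5F1E, ATP5F1A and ATP5MC3, and ATP5F1E had 4357 to 6058 with AFN700 and 4142 to 6988 with DMSO. The largest single-line difference among these 12 genes was that of NDUFA12 in JVM-13, at -0.61, and COX7C differed by at most 0.30 in any line.

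SDHD had negative differences of -0.08 to -0.21 in 7 lines and 0.03 in Maver-1, at -0.10 ± 0.07 over the lines (SE, adjusted p = 0.710). No line crossed from one of its 2 levels to the other. SDHA was at 0.16 ± 0.09 and SDHC at 0.12 ± 0.10, with adjusted p-values of 0.665 and 0.743. None of the 3 complex II genes passed the test in any comparison.

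**Figure D2:**
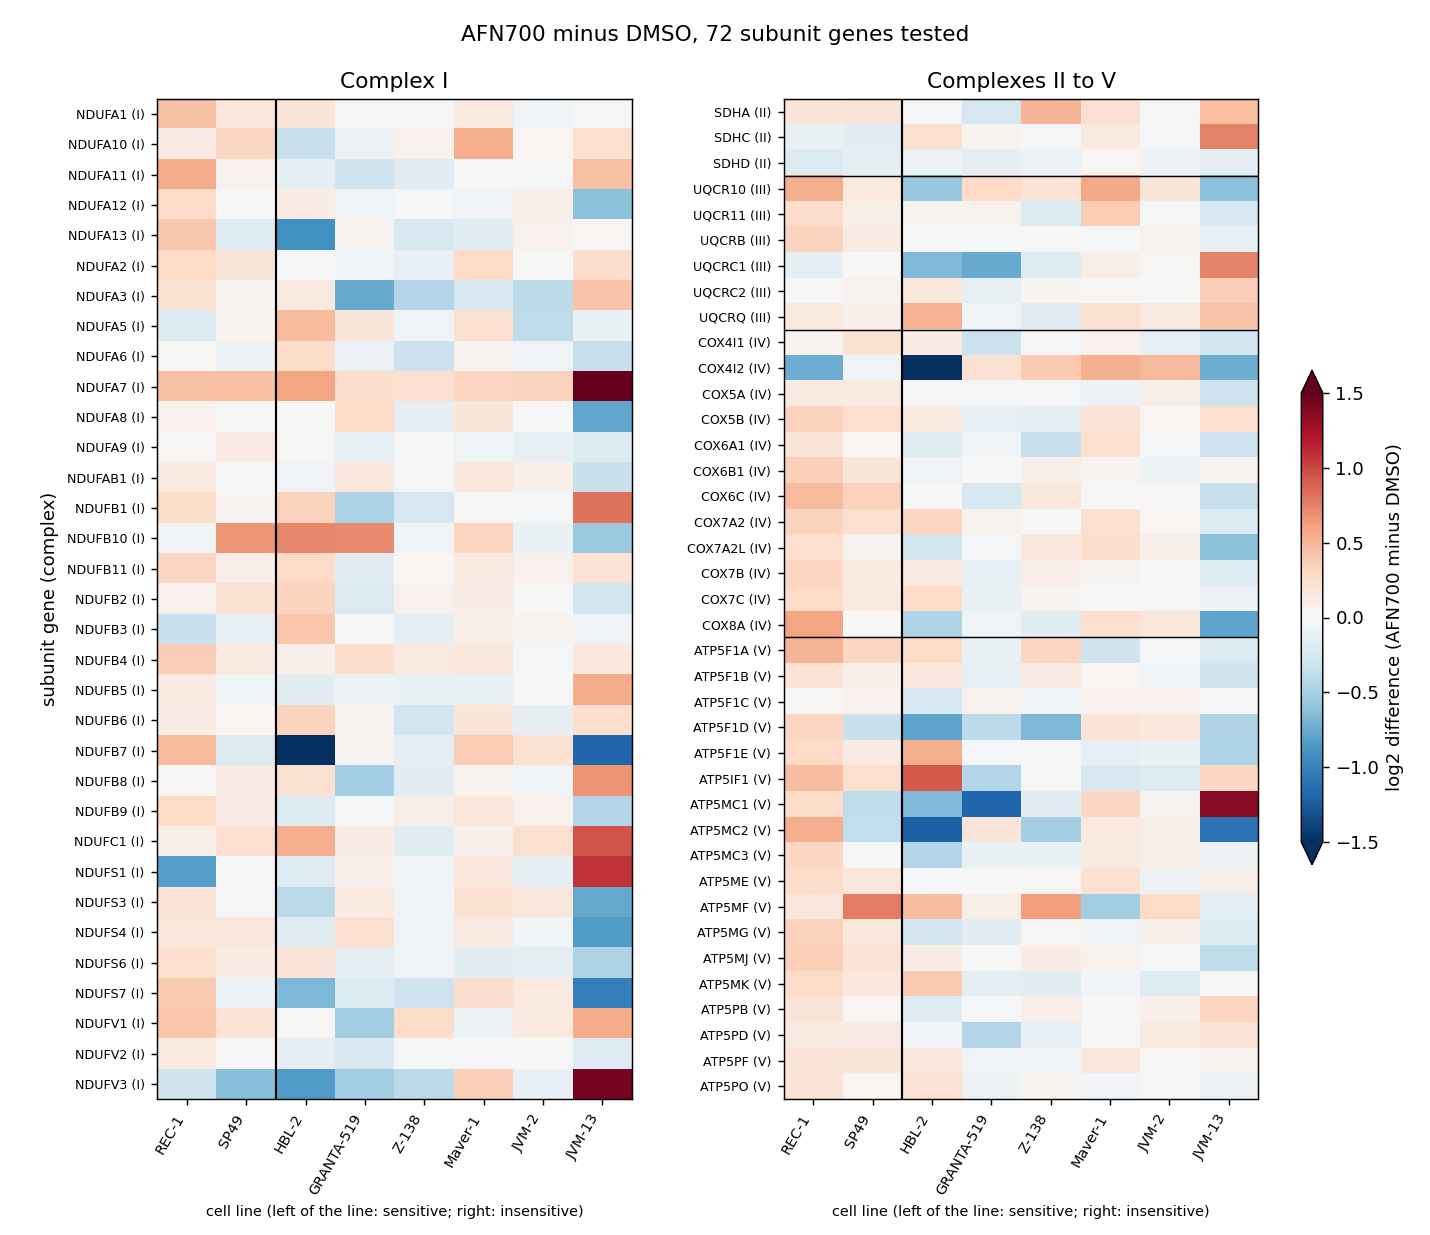
Log2 difference between the AFN700 and the DMSO array for each of the 72 subunit genes tested (rows, complex in brackets) in the 8 cell lines (columns), red for higher and blue for lower with AFN700. NDUFA7 is red in all 8 columns, the REC-1 column is mostly red (62 of 72 positive), and the strongest colours are in HBL-2 and JVM-13.

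**Figure D3:**
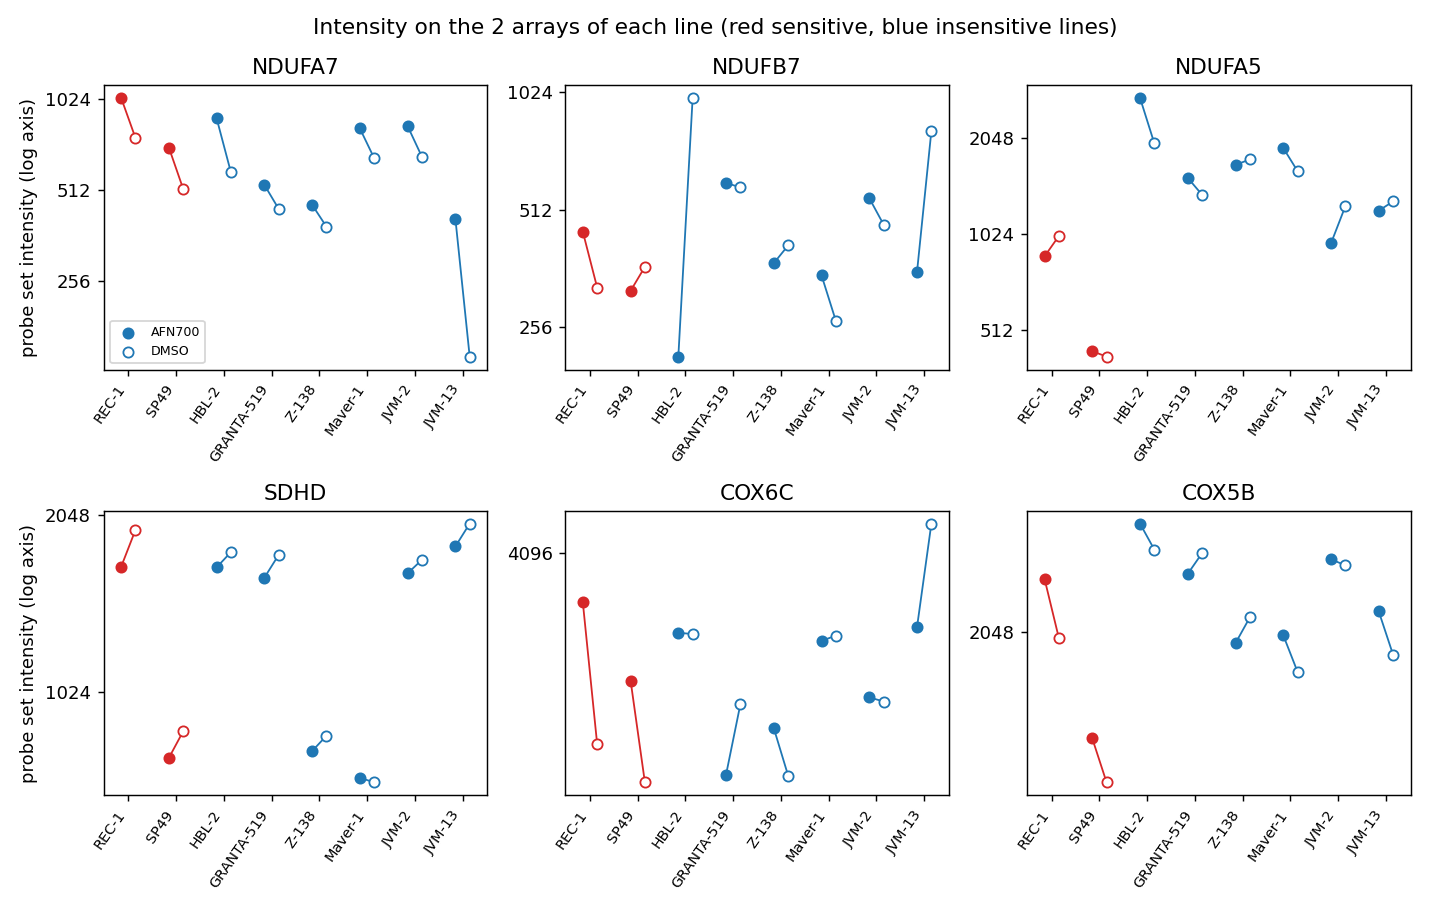
Intensity on the AFN700 array (filled points) and the DMSO array (open points) of each cell line, on log axes that differ between panels, for 6 subunit genes. NDUFA7 is higher with AFN700 in every line, SDHD lies at 2 levels that the treatment leaves apart, and NDUFA5 is lowest in SP49.

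In the sensitive lines most subunit genes had slightly higher values with AFN700. The median log2 difference was 0.15 for the subunit genes and 0.04 for all genes tested, with 61 of 72 positive (84.7%), against 56.2% of all genes. Both lines had positive differences for 49 of 72 (68.1%), against 34.1% of all genes. No gene passed the threshold (0 of 72 and 0 of 12305, 0.0%), and 7 of 72 (9.72%) were at an unadjusted p under 0.05, all positive, against 2.85% of all genes tested. By complex, 28 of 33 were positive in complex I (median 0.14), 1 of 3 in complex II (-0.13), 5 of 6 in complex III (0.15), 11 of 12 in complex IV (0.23) and 16 of 18 in complex V (0.17). The 2 negative genes of complex II were the membrane anchors SDHC (-0.11 in REC-1 and -0.15 in SP49) and SDHD (-0.21 and -0.15). The next 2 SDHC probe sets by signal gave 0.29 and 0.17 in REC-1 and 0.03 and 0.01 in SP49, so the sign of SDHC depends on the probe set.

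The shift was larger in REC-1 than in SP49. In REC-1 62 of 72 genes were positive with a median of 0.24, against 0.05 for all genes, and all 18 genes of complex V and 11 of 12 of complex IV were positive. In SP49 53 were positive with a median of 0.08, against 0.04 for all genes. The bright end of the REC-1 arrays was also higher with AFN700: the 99th percentile of intensity was 2774 with AFN700 and 2402 with DMSO, a log2 difference of 0.21, and 0.05 in SP49. The 1231 genes of the brightest 10% had median differences of 0.13 in REC-1 and 0.05 in SP49. Within REC-1 the 45 subunit genes among them had a median of 0.26 and the other 27 a median of 0.17. After quantile normalization, which makes the arrays' distributions equal, the subunit median was 0.08 in REC-1 and 0.05 in SP49, and 48 of 72 were positive for the mean of both lines (median 0.08). The part of the bright end in the shift was otherwise not tested.

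COX6C, an accessory subunit of complex IV, had the lowest unadjusted p in these lines. It was at 3650.5 units with AFN700 in REC-1 and 3042 in SP49, against 2622 and 2398 with DMSO. In the insensitive lines it had a lowest of 2442, a median of 3131 and a highest of 3448 with AFN700, against 2437, 3137 and 4388 with DMSO. The sensitive lines gave a log2 difference of 0.41 ± 0.13 (SE; limma, adjusted p = 1.0), and 0.24 after quantile normalization. ATP5F1A, the alpha subunit of the catalytic head of ATP synthase, had 4844 and 5006.5 units with AFN700, against 3414 and 4050 with DMSO (0.41 ± 0.15). NDUFA1, an accessory subunit of complex I encoded on the X chromosome, had 2421 and 2456, against 1785 and 2178 (0.31 ± 0.13). All 3 were higher with AFN700 in both lines, and REC-1 gave the larger difference each time. ATP5MJ, a small membrane subunit of ATP synthase, was at 0.28 ± 0.12, NDUFB4 at 0.26 ± 0.12, COX7B of complex IV at 0.23 ± 0.11 and UQCRB, the ubiquinone-binding subunit of complex III, at 0.23 ± 0.10, all with an adjusted p of 1.0.

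The difference in response between sensitive and insensitive lines was tested within the same fit. The subunit genes had a median difference of 0.19 against -0.03 for all genes tested, with 60 positive and 12 negative. No gene passed the threshold (0 of 72 and 0 of 12305, 0.0%), and 3 of 72 (4.17%), all positive, were at an unadjusted p under 0.05, against 1.48% of all genes tested. By complex, 27 of 33 were positive in complex I, 1 of 3 in complex II, 4 of 6 in complex III, 11 of 12 in complex IV and 17 of 18 in complex V. The median was 0.07 after quantile normalization (46 of 72 positive) and 0.31 with centred arrays (66 positive). It was 0.11 without REC-1 and 0.24 without SP49. This comparison and that of the DMSO levels use the same DMSO arrays, so low DMSO values in the sensitive lines enter both.

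The 3 genes at an unadjusted p under 0.05 were COX6C (0.48 ± 0.15 SE), ATP5MG (0.36 ± 0.14) and ATP5F1A (0.41 ± 0.17), each with an adjusted p of 1.0 by limma. ATP5MG, a membrane subunit that lies at the dimer interface of ATP synthase, had 3401 and 2986 units with AFN700 in the sensitive lines, against 2665 and 2655 with DMSO. In the insensitive lines it was at 1948 to 3303 (median 2722) with AFN700, against 1923 to 3810 (median 2906) with DMSO. Its difference was positive in both sensitive lines (0.35 and 0.17) and at -0.28 to 0.07 in the insensitive lines, so the responses did not overlap. The next probe sets by signal gave 0.26 and 0.34 in REC-1 and 0.12 and 0.13 in SP49, above all insensitive lines (at most 0.07). The dimmest ATP5MG probe set overlapped, at 0.27 in REC-1 and -0.06 in SP49, against 0.27 in Z-138.

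Both sensitive responses lay outside the range of the 6 insensitive ones for 12 of 72 subunit genes (16.7%), against 5.01% of all genes tested. Above the range were ATP5MG, ATP5MJ, ATP5PF, COX5A, COX5B, COX6B1, COX6C, COX7B, NDUFA9 and UQCRB, and below it the complex II anchors SDHC and SDHD. SDHC was positive in both sensitive lines by its next probe sets by signal, so its place below the range holds for the probe set used only. Of the 10 above, 5 belong to complex IV, 3 to complex V and 1 each to complexes I and III. COX5B was at 0.34 and 0.252, against a highest of 0.249 in the insensitive lines (JVM-13), and COX6B1 at 0.35 and 0.18, against a highest of 0.08 (Z-138). COX5A was at 0.14 and 0.13, against a highest of 0.08 (JVM-2). The count depended on the scaling, at 18 of 72 (25%) against 4.96% of all genes with arrays centred on their median, and at 5 of 72 (6.94%) against 4.52% under quantile normalization. With the mean of all probe sets of a gene it was 5 of 72 (6.94%) against 4.58%. It carries no test.

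**Figure D4:**
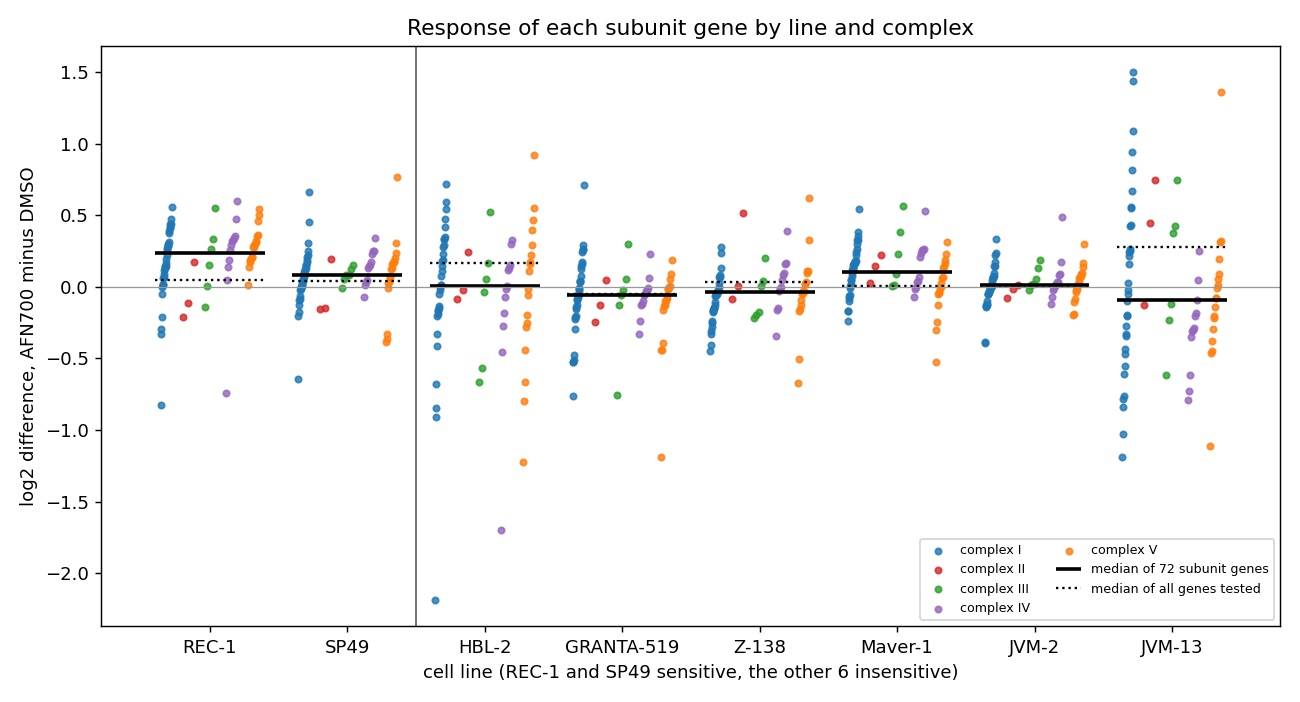
Log2 difference between the AFN700 and the DMSO array for each subunit gene tested (points, coloured by complex) in each cell line, with the median of the 72 subunit genes (solid bar) and of all genes tested (dotted bar). The solid bar lies above the dotted one in REC-1 (0.24 and 0.05) and below it in HBL-2 (0.01 and 0.17) and JVM-13 (-0.09 and 0.27).

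In the insensitive lines the subunit genes had a median difference of -0.01 against 0.07 for all genes tested, with 33 positive and 39 negative. No gene passed the threshold (0 of 72 and 0 of 12305, 0.0%), and 1 of 72 (1.39%) was at an unadjusted p under 0.05, against 6.04% of all genes tested. That gene was NDUFA7 at 0.54 ± 0.18 (SE, adjusted p = 0.758), and at 0.35 ± 0.11 without JVM-13. With centred arrays the subunit median was -0.14 and that of all genes -0.06.

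The insensitive lines differed in sign. The subunit median was 0.10 in Maver-1, against 0.01 for all genes tested, and 0.01 in JVM-2, against 0.01. It was 0.01 in HBL-2, where all genes had 0.17. It was -0.04 in Z-138 (all genes 0.03), -0.06 in GRANTA-519 (all genes -0.05) and -0.09 in JVM-13 (all genes 0.27). Maver-1, an insensitive line, therefore had a positive shift larger than that of the sensitive SP49, with 52 of 72 genes positive, 25 of 33 in complex I and 6 of 6 in complex III. In GRANTA-519 50 of 72 were negative, 14 of 18 in complex V and 10 of 12 in complex IV. In JVM-13 complex IV had 10 of 12 negative (median -0.30). The JVM-13 subunit median was 0.10 after quantile normalization and -0.76 with centred arrays, and that of all genes was 0.28 and -0.39, so its direction is not settled by these data. Centring likewise gave -0.20 in HBL-2 and 0.05 in GRANTA-519.

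Large differences of single subunit genes were few. A 2-fold difference either way was seen for 0 of 72 in REC-1, SP49, Z-138, Maver-1 and JVM-2, against 3.55%, 3.73%, 2.74%, 3.06% and 2.01% of all genes tested. It was seen for 3 of 72 in HBL-2 (14.3% of all genes), 1 of 72 in GRANTA-519 (8.14%) and 7 of 72 in JVM-13 (32.7%). These are single pairs of arrays with no test.

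The largest was NDUFB7, an accessory subunit of complex I, in HBL-2. It had 215 units with AFN700 and 990 with DMSO there, a log2 difference of -2.19, and 355 and 815 in JVM-13 (-1.19). Across the other 6 lines the difference was -0.20 to 0.47. A second NDUFB7 probe set gave -1.23 in HBL-2 and -1.27 in JVM-13, so both probe sets were lower by over 2-fold in these 2 lines. Both lines also had higher actin 3'/5' ratios with AFN700 (16.7 against 1.90, and 3.43 against 2.01). The ratio was also higher with AFN700 in SP49 (6.39 against 2.73), Maver-1 (18.8 against 10.3) and Z-138 (5.43 against 3.50), where NDUFB7 was at -0.20, 0.38 and -0.15, and the part of RNA quality was not tested.

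ATP5MC2 showed a like pair of values, with 598 units with AFN700 and 1396.5 with DMSO in HBL-2 (-1.22) and 365 and 792 in JVM-13 (-1.11). ATP5MC1, which encodes the same mature c-ring peptide, had 438 with AFN700 and 1001 with DMSO in GRANTA-519 (-1.19), and 1840 and 714 in JVM-13 (1.36). The third c-ring gene, ATP5MC3, differed by no more than 0.44 in any line. In HBL-2 NDUFA13, a complex I subunit also known as GRIM-19, was at -0.91, NDUFV3 at -0.85, and ATP5IF1, the inhibitor of ATP hydrolysis by complex V, at 0.92. NDUFB10 (0.72), NDUFA7 (0.59), ATP5F1E (0.55), the epsilon subunit of ATP synthase, and NDUFC1 (0.54) were the next highest in HBL-2. COX4I2 was at -1.70 there, but dim on both arrays, at 1.3 units with AFN700 and 11.6 with DMSO.

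In GRANTA-519 NDUFA3 and UQCRC1, a core protein of complex III, were at -0.76 and -0.75, and NDUFV1, which binds NADH and the flavin, at -0.53, with NDUFV3 at -0.52. NDUFB10 was at 0.71, UQCR10 at 0.30, NDUFA8 at 0.29, NDUFA7 at 0.26 and NDUFB4 at 0.26. In JVM-13 the positive values were led by NDUFA7 (1.50), NDUFV3 (1.44), ATP5MC1 (1.36), NDUFS1 (1.09), the largest iron-sulfur subunit of complex I, and NDUFC1 (0.94). After NDUFB7 and ATP5MC2, the lowest JVM-13 values were those of NDUFS7 (-1.03), an iron-sulfur subunit on the path to ubiquinone, NDUFS4 (-0.84), an accessory subunit, and COX8A (-0.79). All differences in JVM-13 rest on the DMSO array that stood apart.

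Probe sets of one gene did not always give one answer. For 25 subunit genes, 42 pairs of probe sets were above the 60th percentile on every array, and their differences had the same sign in 216 of 336 comparisons of a pair in a line (64.3%). The median gap between the 2 values was 0.21 on the log2 scale. NDUFB10 was at 0.72 in HBL-2 and 0.66 in SP49 by one probe set and at -0.76 and -0.28 by the other. SDHC was at 0.24 in HBL-2 by the probe set used and at -0.78, -0.66 and -2.18 by 3 others, and 2 further ones gave 0.75 and 0.62. NDUFV3 was more alike, at -0.85 and -0.94 in HBL-2 and 1.44 and 2.12 in JVM-13. NDUFS1 was negative in REC-1 by 2 probe sets (-0.83 and -0.29).

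Genes that build, feed or regulate the complexes were taken as further lists, and none of their members passed the threshold in any comparison. Of 50 assembly factors, 33 were negative in the sensitive lines (median -0.07) and 41 negative in the difference between sensitive and insensitive lines (median -0.19), against medians of 0.04 and -0.03 for all genes tested. Their DMSO difference had a median of 0.25, against 0.07 for all genes tested. The lowest unadjusted p among them over the 8 lines was that of COX17, a copper chaperone for complex IV, at 0.73 ± 0.23 (SE, adjusted p = 0.496). In DMSO it was that of COA6, a complex IV assembly protein, at -0.92 ± 0.29 (adjusted p = 0.737).

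Of 14 biogenesis regulators, 12 were negative in the sensitive lines (median -0.23), against 5389 of 12305 genes tested (median 0.04). In the difference 13 were negative (median -0.19), against 6632 of 12305 (median -0.03). Over the 8 lines 5 of the 14 were positive and 9 negative. PPARGC1A had the lowest unadjusted p among them there, at 0.66 ± 0.28 (SE; limma, adjusted p = 0.595). PPRC1, a coactivator of the PGC-1 family, was at -0.45 ± 0.29 in the sensitive lines (adjusted p = 1.0). TFAM, which packages mitochondrial DNA, was at -0.38 ± 0.16 between the DMSO groups (adjusted p = 0.864). Of 77 mitochondrial ribosomal protein genes, 53 were negative in the sensitive lines (median -0.05), and MRPL1 was at -0.44 ± 0.11 over all lines (adjusted p = 0.458). The tricarboxylic acid cycle and pyruvate dehydrogenase list (15 of 17 measured) had a median of -0.03 in the sensitive lines, where IDH3A, a subunit of isocitrate dehydrogenase, was at -0.85 ± 0.36 (adjusted p = 1.0). The electron carriers (8 of 9 measured) also had -0.03. ETFA, which passes electrons from fatty acid oxidation to ubiquinone, was at -0.78 ± 0.24 between the DMSO groups (adjusted p = 0.750).

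The 5 transcripts of the rule that are not protein coding were dim. The pseudogenes ATP5MC2P1 and COX6A1P1 had at most 17.3 and 5.7 units with AFN700 and 16.7 and 4.6 with DMSO, and the divergent transcript NDUFV1-DT at most 7.7 and 2.3. NDUFB2-AS1 had 23.3 to 61.0 units with AFN700 and 24.8 to 51.7 with DMSO, and NDUFV2-AS1 had 11.6 to 37.8 and 10.1 to 26.4. These last 2 were tested, and neither passed the threshold in any comparison. The summed intensities of markers of other cells lay at 9.9 to 372 with AFN700 and 5.3 to 293 with DMSO for 4 T-cell genes, at 14.6 to 308 and 13.3 to 147 for 4 myeloid genes, at 8.5 to 328 and 13.3 to 627 for 4 fibroblast genes, at 16.8 to 496 and 23.6 to 410.5 for 4 epithelial genes, and at 15.3 to 106 and 15.6 to 68.3 for 3 of 4 muscle genes.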

How the data were processed

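RNA of 8 cell lines, each with 1 AFN700 and 1 DMSO array, was measured on Affymetrix arrays after amplification with a NuGEN Ovation system, per the labels' protocols. Per the submitters' processing notes, the authors computed intensity values for each probe set with MAS5 and deposited them on a linear scale. The MAS5 version is not given in the sources used here, and no detection calls were used. Each array has a mean of 150 after 2% is trimmed from each end.

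Gene names came from the platform annotation (42898 probe sets listed, 41097 with 1 gene, 1801 with several, which were left out), and symbols were updated by Entrez number with the RefSeq gene table. The probe set of highest mean intensity stood for a gene. Intensities were taken as log2(intensity + 3.3), where 3.3 is the 25th percentile of all values, so log2 differences understate the change of dim genes. The values were not normalized again. Models were fitted by limma 3.58.1 under R 4.3.3 (lmFit, then eBayes with a trend) over the 12305 genes tested: the response model had the line as a fixed block on all 16 arrays, and the DMSO model used the 8 DMSO arrays. P-values were adjusted by Benjamini-Hochberg with a threshold of 0.05. SE is the moderated standard error, which in the response model is shared by all lines. P-values measure the spread between lines, each of which is 1 array per treatment. The 2 arrays of a line are paired because they come from the same cell line.

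Named genes were those at an unadjusted p under 0.05 (up to 5 per direction) where none passed the threshold, the 3 of highest signal in complexes I, III, IV and V, the SDH genes, the 6 of largest DMSO spread, pairs with a restricted form, genes of one sign in all lines, and the 5 largest changes per direction in HBL-2, GRANTA-519 and JVM-13. Members, gene lists and tests were chosen with earlier results of these data known. The fitting steps were tested on simulated data. Alternatives were other pseudocounts (1 and 16), quantile normalization, centring, other filters and probe set rules, no trend, no block, leaving out each line, and an adjusted p under 0.10. Promoters are from RefSeq (GRCh38.p14). Figures were drawn with matplotlib 3.10.9.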

Additional observations from a re-analysis of the deposited data

Results flagged for a closer look

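In 10 of the 99 groups of 6 insensitive lines examined, 1 line lay far from the other 5. The gap was large for the whole range of the group. The groups were the response and the DMSO level of the genes named, and the median response of each complex. Chance gives about 1 in 20 groups that were not chosen by their values. Some of these genes were named for large differences in HBL-2, GRANTA-519 or JVM-13 or for a wide DMSO spread, so the number of groups and the lines in them are partly set by that choice. JVM-13 was the line in 7 of them, HBL-2 in 2 and Maver-1 in 1. In JVM-13 the AFN700 minus DMSO difference was high for NDUFA7 (1.50), NDUFS1 (1.09) and SDHC (0.75), and low for NDUFA12 (-0.61) and ATP5MJ (-0.38). Its DMSO level was low for NDUFA7 (144 units) and high for NDUFA12 (5535 units). In HBL-2 the difference was high for COX7C (0.30) and low for NDUFA13 (-0.91). In Maver-1 it was the only positive one for SDHD (0.026). The DMSO array of JVM-13 had a median log2 level of 7.25, below all other arrays, and the ratio of 3' to 5' actin signal in HBL-2 was 16.7 with AFN700 and 1.90 with DMSO, and their part in these values was not tested.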

How the results depend on the processing

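No subunit gene passed the threshold in any of 99 alternative readings, which include the main fits read at an adjusted p under 0.10. Of 751 alternative values over 49 results, 706 stayed the same by a fixed rule. Gene differences had to keep their direction and side of the threshold, and medians to move by less than the spread between lines. Counts, among them the counts of 0 calls, had to be equal or close in ratio. Without the line as replicate block the medians (0.03 over 8 lines, 0.15 in the sensitive lines, -0.01 in the insensitive lines and 0.19 for the difference) are the same by construction, since each line has 1 array per treatment, and only the errors change, with 0 calls and NDUFA7 at 0.52 ± 0.29 (SE, adjusted p = 1.0 by limma). With centred arrays the subunit median was -0.14 in the insensitive lines, 0.31 for the difference and -0.32 in DMSO. The response median with centred arrays was -0.76 in JVM-13, -0.20 in HBL-2 and 0.053 in GRANTA-519. The DMSO deviation was then -0.21 in SP49, -0.26 in Maver-1 and 0.72 in JVM-13. With the same centring 11 subunit genes (15.3%, against 9.22% of all genes) lay outside the insensitive DMSO range. With quantile normalization the difference median was 0.066, the response median was 0.081 in REC-1 and 0.10 in JVM-13, and the DMSO deviation was -0.00015 in REC-1 and -0.079 in JVM-13. The count of subunit genes whose response lay outside the insensitive range, 12 as reported, was 5 with quantile normalization, 5 with the mean of all probe sets, 5 of 55 (9.09%, against 4.89% of all genes) without probe sets ending in _x_at or _s_at, 24 (33.3%, against 14.3%) without JVM-13 and HBL-2, and 12 to 33 when 1 line was left out (33 without SP49, 45.8% against 23.5%). For DMSO levels, 7 as reported, it was 14 (19.4%, against 16.3%) without JVM-13 and HBL-2 and 7 to 28 when 1 line was left out. This DMSO count was 28 without SP49 (38.9%, against 30.1%) and 15 without REC-1 (20.8%, against 22.9%). It was 13 without Z-138 (18.1%, against 12.01% of all genes), 12 without Maver-1 (16.7%, against 13.4%) and 11 without JVM-13 (15.3%, against 12.6%). With fewer lines in a group, non-overlap is easier to meet. The COX5A DMSO difference was 0.011 without _x_at and _s_at probe sets, which changes the probe set. Over all genes, calls over the 8 lines numbered 0 as reported, 10 with JVM-13 left out and 37 with HBL-2 left out as well, those in the sensitive lines were 5 without JVM-13 and HBL-2, and in DMSO they ranged between 0 and 46 (46 without SP49), against 1 as reported. Where no construction shows it, the cause was not tested. NDUFA7 over 8 lines had its lowest adjusted p, 0.0728, without JVM-13 and HBL-2. The 2 sensitive lines and 1 array per condition limit precision, and signal near background limits COX4I2, ATP5MF and the restricted forms.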
